A study of Mus musculus with 13 samples.

Results

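The transcripts described here encode the receptors for GM-CSF, Flt3 ligand and the related growth factors M-CSF, G-CSF, stem cell factor, IL-3 and IL-5. They were measured in dendritic cells sorted from mouse spleen, and 9 genes were taken by name: Csf2ra, Csf2rb, Csf2rb2, Flt3, Csf1r, Csf3r, Kit, Il3ra and Il5ra. Each of the 9 was found among the 22180 genes that the arrays measured with a probe set assigned to a single symbol, and each had 1 such probe set. The rule that picks them reads gene names.

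All 13 arrays came from C57Bl/6 littermates, labelled male and 6 weeks of age, that carried a subcutaneous B16 melanoma secreting FLT3L. The mice received an intraperitoneal injection of PBS, or of PBS with 50 ug of the bacterial cell wall fragment muramyl dipeptide (MDP), which NOD2 senses, 5 days after the tumour cells. Spleens were taken 24 h later, CD205+CD8+ dendritic cells were sorted, and these were divided by a CD103 low and a CD103 high gate. This gave 4 groups, named here by treatment and gate: 4 arrays of PBS CD103 low cells and 3 arrays each of PBS CD103 high, MDP CD103 low and MDP CD103 high cells. Every group, the PBS controls included, therefore came from animals with a tumour that supplied the ligand of one of the receptors measured, and no tumour-free mouse was analysed here. The gates were set on CD103 after treatment, so cells behind one gate may differ in kind between PBS and MDP animals. The labels do not say that each array is its own mouse, so the p-values measure the spread between arrays.

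GM-CSF, IL-3 and IL-5 each bind an alpha chain of their own (Csf2ra, Il3ra and Il5ra), which then pairs with a shared beta chain encoded by Csf2rb and signals through JAK2 and STAT5. Mice have a second beta chain gene, Csf2rb2, which serves IL-3. Flt3, Kit and Csf1r are receptor tyrosine kinases for Flt3 ligand, stem cell factor and M-CSF or IL-34, and Csf3r is the G-CSF receptor of the neutrophil lineage. In spleen, Flt3 ligand maintains the conventional dendritic cells and their precursors, and GM-CSF is known to promote CD103 on the CD8+ type.

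The values are deposited log2 values, on which a difference of 1 is a doubling. Across the 1105 olfactory receptor genes, which these cells should not use, the 95th percentile was 5.12, and a gene whose mean over the arrays lay below it was treated as at background. Markers of the CD8+ conventional dendritic cell (cDC1) were all above it, 13 of 13 measured, with mean levels of 12.24 for Irf8, 11.18 for Batf3 and 10.03 for Xcr1. The 13 include Cd8a, Ly75 and Itgae, which encode the proteins used in the sort and gates. Cd8a, which encodes the CD8 of the sort, read 10.15 to 10.64, Ly75 (CD205) 8.99 to 9.93 and Nod2, the sensor of MDP, 6.54 to 7.03 over the arrays. The array medians lay between 5.00 and 5.13. Although every mouse was labelled male, Xist, which female cells use to silence one of their X chromosomes, read 10.98 to 11.21 on 7 arrays and 4.47 to 6.69 on the other 6, with both kinds in every group. MDP CD103 low replicate 1 stood apart: the mean of 17 genes of CCR7-type mature dendritic cells was 8.68 on it, against 7.32 and 7.37 on the other arrays of its group and 6.44 to 7.82 over all other arrays. Of markers of other cells, 6 of 8 for B cells, 6 of 7 for T cells, 5 of 6 for natural killer cells and 2 of 9 for plasmacytoid dendritic cells were at background. The receptor differences that depend most on MDP CD103 low replicate 1 are given with and without it. Counts and medians of gene lists include that array and were not recomputed without it. In sorted bulk RNA, fewer cells of a type and less RNA per cell cannot be told apart.

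The receptors fell into 7 transcripts above background and a pair at it. Csf2ra, Csf2rb, Csf2rb2, Il3ra, Flt3, Kit and Csf1r were detected, with means over the 13 arrays of 8.89, 7.43, 10.16, 7.73, 10.62, 10.97 and 5.89 in that order. Il5ra had a mean of 3.93 and Csf3r of 5.09. Because probe sets differ in brightness, these means show detection and not which receptor was the more abundant.

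No receptor transcript passed the test in any of the 7 comparisons made. The test was limma on all 13 arrays with 1 mean per group and Benjamini-Hochberg adjustment over all 22180 genes, at an adjusted p of 0.05. Between the CD103 gates, 0 of 9 passed in PBS mice, where 0.0766% of all genes did, and 0 of 9 in MDP mice, where 0.523% did. For MDP against PBS, 0 of 9 passed in CD103 low cells, where 0.00451% of all genes did, and 0 of 9 in CD103 high cells, where 1.82% did. The test of whether the MDP response differed between the gates called 0 of 9, against 0.0721% of all genes. Averaged over treatments or over gates, 0 of 9 passed against 0.126% and 0.185% of all genes.

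At an unadjusted p under 0.05 the receptor counts were 2 of 9 between the gates in PBS mice (8.52% of all genes), 2 of 9 between the gates in MDP mice (10.2%), 1 of 9 for MDP in CD103 low cells (6.06%), 2 of 9 for MDP in CD103 high cells (13.3%) and 1 of 9 for the difference between responses (9.63%). The averages gave 0 of 9 over treatments (9.56%) and 1 of 9 over gates (11.8%). The median receptor difference was 0.03, -0.03, 0.03 and -0.08 in the 4 simple comparisons in the same order, beside -0.003, -0.01, 0.0042 and -0.01 over all genes. With counts of 0 to 2 receptors beside such shares, nothing about the receptors as a set is read from them. For scale, Itgae, which encodes CD103 itself and was the basis of the sort, differed by 2.23 ± 0.23 (SE) between the gates in PBS mice (limma adjusted p = 0.00376).

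**Figure D1:**
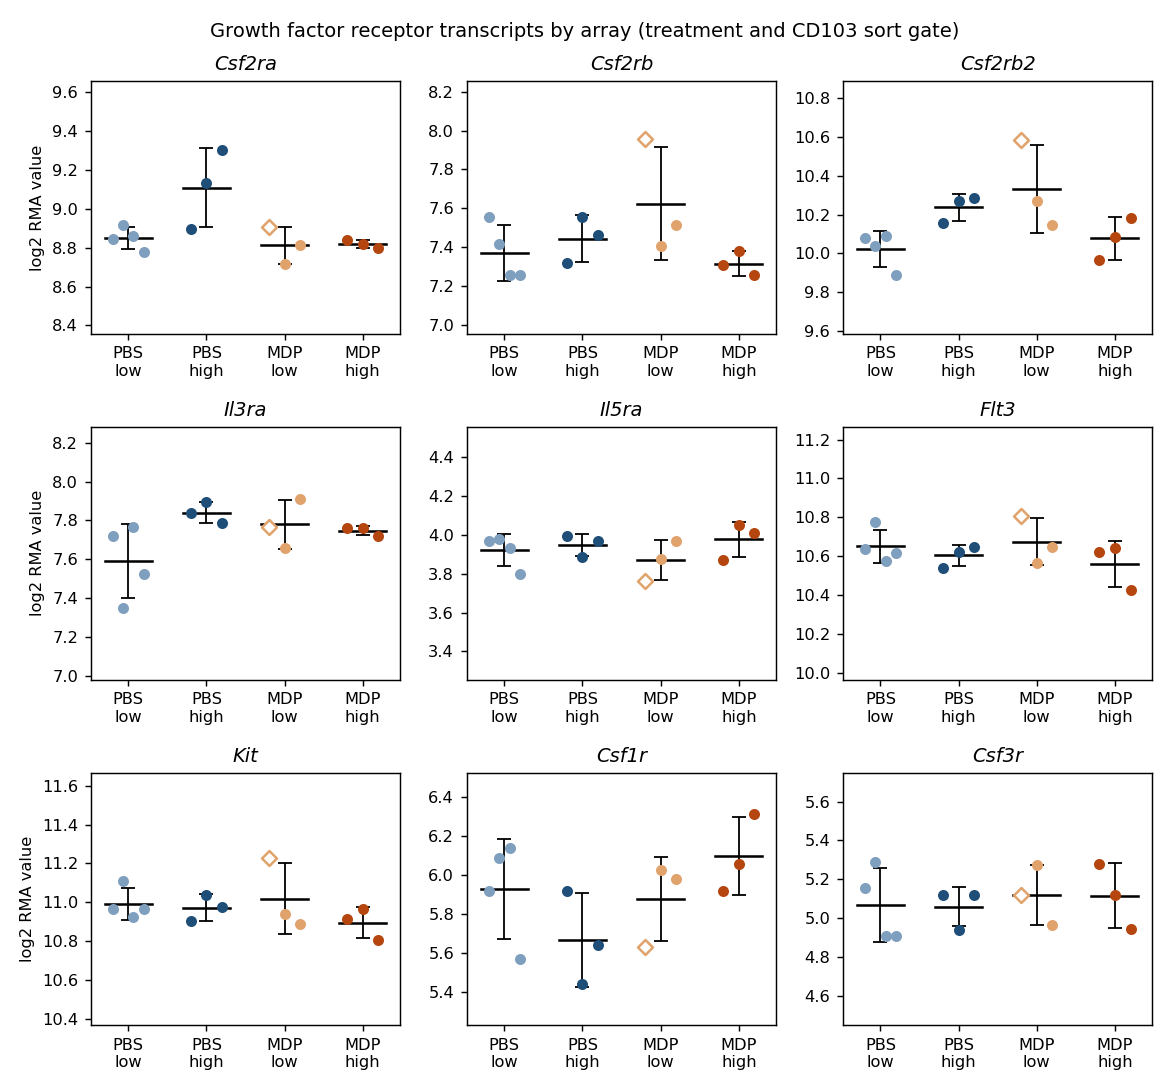
The log2 RMA value of each of the 9 receptor transcripts (y axis, 1 panel each, all panels spanning the same log2 range) on every array by treatment and CD103 gate (x axis), with the group mean as a bar and 1 SD as the error bar. The open diamond is MDP CD103 low replicate 1, which is the highest array for Csf2rb, Csf2rb2, Flt3 and Kit, and no panel separates all 4 groups.

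Csf2ra, the alpha chain that gives the GM-CSF receptor its specificity, had its highest arrays in the PBS CD103 high group. It read 8.85, 8.92, 8.86 and 8.78 on the PBS CD103 low arrays and 8.89, 9.13 and 9.30 on the PBS CD103 high arrays. After MDP it read 8.91, 8.71 and 8.82 on the CD103 low arrays and 8.84, 8.82 and 8.80 on the CD103 high arrays. Replicates 5 and 6 of the PBS CD103 high group stood above all other arrays, while replicate 4 of that group lay inside the range of the PBS CD103 low arrays. The gates differed by 0.26 ± 0.09 in PBS mice (95% interval 0.07 to 0.45, 1.20-fold, limma adjusted p = 0.437) and by 0.01 ± 0.10 in MDP mice (-0.20 to 0.21, adjusted p = 0.989).

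The MDP difference of Csf2ra was -0.29 ± 0.10 in CD103 high cells (95% interval -0.50 to -0.08, 0.818-fold, limma adjusted p = 0.178), and all 3 MDP arrays lay below all 3 PBS arrays. Such a separation of the 2 groups occurred in 19% of all genes in that comparison, and among the receptors Csf2ra and Il3ra showed it, both lower after MDP. In CD103 low cells the MDP difference of Csf2ra was -0.04 ± 0.09 (-0.23 to 0.15), and the responses in the 2 gates differed by -0.25 ± 0.13 (limma adjusted p = 0.578). Leaving out PBS CD103 high replicate 4, the array nearest to the other groups, brought the MDP difference in CD103 high cells to -0.40 with an adjusted p of 0.0363, and the gate difference in PBS mice to 0.37. Leaving out PBS CD103 high replicate 6, the highest array, brought the same differences to -0.20 and 0.16, and the difference between responses to -0.16. The analysis without replicate 4 was the only alternative in which a receptor passed the threshold.

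Other transcripts moved on the same arrays. The mature dendritic cell list averaged 7.35 to 7.82 on the PBS CD103 high arrays and 6.44 to 6.81 on the MDP CD103 high arrays, with 16 of its 17 genes above background. A list of 15 cell cycle genes averaged 8.59 to 8.96 and 9.38 to 9.52 on the same arrays. The list of 9 plasmacytoid dendritic cell markers, 2 of them at background, averaged 6.41 to 6.58 on the PBS CD103 high arrays and 6.21 to 6.28 on the MDP CD103 high arrays. It averaged 6.23 to 6.28 on the PBS CD103 low arrays and 6.32 to 6.44 on the MDP CD103 low arrays. The list did not move as a whole. Between the gates of PBS mice 5 of its 9 differences lay above 0 (median 0.09), and for MDP in CD103 high cells 2 of 9 did (median -0.09). Of its genes Cd300c and Pacsin1 passed in both comparisons: Cd300c was 0.90 ± 0.13 higher in the CD103 high gate of PBS mice (limma adjusted p = 0.0328) and differed by -0.96 ± 0.14 for MDP in CD103 high cells (adjusted p = 0.00520), and Pacsin1 by 0.90 ± 0.13 (adjusted p = 0.0294) and -0.77 ± 0.14 (adjusted p = 0.0130). Siglech, a defining marker, lay near background on average, at 5.21. The part of these 3 lists in the Csf2ra values was not tested.

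Csf2rb encodes the beta chain common to the GM-CSF, IL-3 and IL-5 receptors, and Csf2rb2 the near-identical chain of the IL-3 receptor. The sequences of the genes are alike enough that a probe set of one could bind RNA of the other, so their values may not be independent. Csf2rb2 was highest on MDP CD103 low replicate 1. It read 10.08, 10.04, 10.09 and 9.89 on the PBS CD103 low arrays and 10.16, 10.27 and 10.29 on the PBS CD103 high arrays. After MDP it read 10.58, 10.27 and 10.14 on the CD103 low arrays and 9.96, 10.08 and 10.18 on the CD103 high arrays.

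The lowest Csf2rb2 array of PBS CD103 high and that of MDP CD103 low both lay above every PBS CD103 low array. In PBS mice the gate difference was 0.21 ± 0.10 (limma adjusted p = 0.595), and Csf2rb2 and Il3ra were the receptors whose gates did not overlap there, a separation seen in 8.53% of all genes. For MDP in CD103 low cells the difference was 0.31 ± 0.10 (95% interval 0.09 to 0.53, 1.24-fold, adjusted p = 0.741), and Csf2rb2 was the 1 receptor whose groups did not overlap, beside 5.5% of all genes. In CD103 high cells the MDP difference was -0.16 ± 0.11 (adjusted p = 0.580), and -0.10 without MDP CD103 high replicate 2.

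The MDP response of Csf2rb2 differed between the gates by -0.47 ± 0.15 (95% interval -0.79 to -0.15, limma adjusted p = 0.279). The gates of MDP mice differed by -0.26 ± 0.11 (limma adjusted p = 0.429). Without MDP CD103 low replicate 1 these values were -0.34 (adjusted p = 0.477) and -0.13 (adjusted p = 0.850), and the MDP difference in CD103 low cells was 0.18. The high maturation transcripts of that array stand beside its high Csf2rb2, and their part was not tested.

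Csf2rb itself read 7.55, 7.42, 7.26 and 7.26 on PBS CD103 low and 7.32, 7.55 and 7.46 on PBS CD103 high. After MDP it read 7.95, 7.41 and 7.51 on CD103 low and 7.31, 7.38 and 7.26 on CD103 high. In MDP mice each CD103 high array lay below each CD103 low array, the 1 receptor separated in that comparison, where 14.4% of all genes were. The difference was -0.31 ± 0.13 (95% interval -0.59 to -0.03, limma adjusted p = 0.431), and it was -0.14 without MDP CD103 low replicate 1. MDP gave differences of 0.25 ± 0.12 in CD103 low cells (adjusted p = 0.814), 0.09 without that array, and -0.13 ± 0.13 in CD103 high cells (adjusted p = 0.746), -0.07 without PBS CD103 high replicate 5.

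Il3ra, the alpha chain for IL-3, had its 2 lowest arrays in the PBS CD103 low group. It read 7.72, 7.35, 7.76 and 7.52 there and 7.84, 7.89 and 7.79 on PBS CD103 high. The MDP arrays read 7.77, 7.66 and 7.91 in CD103 low and 7.76, 7.76 and 7.72 in CD103 high cells. PBS CD103 low was the group with the widest spread (SD 0.19), while the MDP CD103 high arrays had the narrowest (SD 0.02). The gates of PBS mice differed by 0.25 ± 0.10 (95% interval 0.04 to 0.46, limma adjusted p = 0.522), with the CD103 high arrays above the CD103 low arrays. MDP gave differences of 0.19 ± 0.10 in CD103 low cells (adjusted p = 0.818), which was 0.11 without PBS CD103 low replicate 3 and 0.12 without MDP CD103 low replicate 3, and -0.09 ± 0.10 in CD103 high cells (adjusted p = 0.779), although in the latter each MDP array lay below each PBS array.

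Il5ra, the alpha chain for IL-5 that marks eosinophils and some B cells, was at background on every array, from 3.76 to 4.05. The 6 measured eosinophil markers, Il5ra among them, were all at background. The group means of Il5ra were 3.92 ± 0.08 (SD, n = 4) in PBS CD103 low, 3.95 ± 0.06 in PBS CD103 high, 3.87 ± 0.10 in MDP CD103 low and 3.98 ± 0.09 in MDP CD103 high, each of the last 3 with n = 3. These arrays give no measurable level of this chain in any group.

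The promoter of Csf2rb2 is shown because its groups separated in 2 of the 4 comparisons, as those of Il3ra also did, and because it holds a STAT site, and that of Flt3 because it is the receptor for the ligand every mouse received. Sequences are the 250 bases before the start site on the gene's own strand, from RefSeq for the build GRCm38.p6, and capitals mark the motif matches found on either strand. The motifs searched were the PU.1 core GAGGAA, the STAT site TTCNNNGAA and an ETS-IRF composite of GGAA and GAAA set 2 bases apart. None of the 3 contains another.
Csf2rb2, chr15:78305722-78305971, minus strand: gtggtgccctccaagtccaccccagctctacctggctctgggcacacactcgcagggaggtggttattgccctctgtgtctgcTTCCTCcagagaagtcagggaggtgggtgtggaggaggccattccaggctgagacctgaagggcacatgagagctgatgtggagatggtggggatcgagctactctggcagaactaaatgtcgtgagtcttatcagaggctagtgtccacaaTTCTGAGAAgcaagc
Flt3, chr5:147400490-147400739, minus strand: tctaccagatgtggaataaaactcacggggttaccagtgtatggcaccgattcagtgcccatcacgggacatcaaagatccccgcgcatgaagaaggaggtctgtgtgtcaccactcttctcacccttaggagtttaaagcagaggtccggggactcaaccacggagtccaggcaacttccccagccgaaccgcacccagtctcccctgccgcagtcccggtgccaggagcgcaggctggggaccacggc
The Csf2rb2 window holds 1 PU.1 core, read here on the opposite strand as TTCCTC, and 1 STAT site near its end. The Flt3 window holds none of the 3 motifs, which says only that these letters are not in this stretch. Among all 32851 promoters of that length, 23.3% hold the PU.1 core, 7.02% the STAT site and 2.30% the ETS-IRF composite. Of the 7 receptors with a promoter entry, Csf2ra has 2 PU.1 cores, Kit and Csf3r 1 each, and Il3ra and Il5ra none, while Csf2rb2 is the only one with a STAT site and none has the composite. A match is a description of letters and does not show binding.

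Flt3 varied little. This receptor kinase is needed for dendritic cell development, and its ligand came from the tumour in every animal. It read 10.64, 10.78, 10.58 and 10.62 on PBS CD103 low, 10.54, 10.62 and 10.65 on PBS CD103 high, 10.81, 10.57 and 10.65 on MDP CD103 low, and 10.62, 10.64 and 10.43 on MDP CD103 high. All 4 groups overlapped. The order of the group means was MDP CD103 low (10.67 ± 0.12, SD), PBS CD103 low (10.65 ± 0.09), PBS CD103 high (10.60 ± 0.06) and MDP CD103 high (10.56 ± 0.12), and no neighbours in it differed by more than their spread. The gate difference was -0.05 ± 0.08 in PBS mice (95% interval -0.22 to 0.13, limma adjusted p = 0.931) and -0.11 ± 0.09 in MDP mice (-0.30 to 0.08, adjusted p = 0.725), the latter -0.05 without MDP CD103 low replicate 1, or -0.04 if replicate 4 of MDP CD103 high was left out. For MDP the difference was 0.02 ± 0.08 in CD103 low cells (-0.15 to 0.20, adjusted p = 0.975), -0.04 without MDP CD103 low replicate 1, and -0.04 ± 0.09 in CD103 high cells (-0.23 to 0.15, adjusted p = 0.889). Across these 4 intervals, each at 95% and not adjusted for their number, the largest change still inside one was 1.23-fold.

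Kit, the stem cell factor receptor of precursors and mast cells, was detected on every array. It read 10.97, 11.11, 10.93 and 10.97 on PBS CD103 low, 10.90, 11.04 and 10.98 on PBS CD103 high, 11.23, 10.94 and 10.89 on MDP CD103 low, and 10.92, 10.97 and 10.81 on MDP CD103 high. The groups overlapped, with the highest array in MDP CD103 low and the lowest in MDP CD103 high. In MDP mice the gate difference was -0.12 ± 0.09 (95% interval -0.33 to 0.08, limma adjusted p = 0.722), and -0.02, -0.19 and -0.08 without MDP CD103 low replicate 1, MDP CD103 low replicate 3 and MDP CD103 high replicate 4. In PBS mice it was -0.02 ± 0.09 (-0.21 to 0.17, adjusted p = 0.979). MDP gave differences of 0.03 ± 0.09 in CD103 low cells (adjusted p = 0.973), -0.08 without MDP CD103 low replicate 1, and -0.08 ± 0.09 in CD103 high cells (adjusted p = 0.796), and the largest change inside the 4 intervals was 1.25-fold.

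Other transcripts of mast cells, basophils and precursors were mostly at background. Of 10 mast cell and basophil markers 8 were at background, among them Cpa3 at 2.83, Fcer1a at 2.59, Ms4a2 at 4.27 and Gata2 at 4.48, and the pair above it were Kit itself and Tpsb2 at 5.23. Of 8 precursor markers 5 were at background, while Cd34 at 5.25 and Meis1 at 5.90 lay above it with Kit. The mean of the precursor list ran from 5.41 to 5.72 over the arrays.

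**Figure D2:**
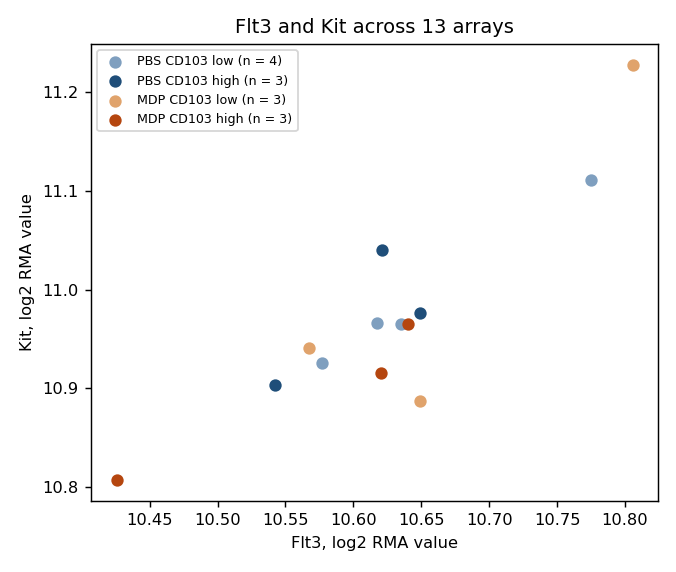
Kit against Flt3, both as log2 RMA values, for the 13 arrays coloured by treatment and CD103 gate. The arrays at the ends are MDP CD103 high replicate 4 (lowest on both axes) and MDP CD103 low replicate 1 (highest on both), and the groups are not separated.

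Kit was the gene most like Flt3 over all 13 arrays, a rank that depended on 1 of them. Among 10713 genes above background, Pearson's r with Flt3 over the 13 arrays was highest for Kit at 0.887, followed by Tmem131 at 0.880 and Tnfrsf9 at 0.868. The likeness of Flt3 and Kit was 0.870 after removing the group means, 0.838 without MDP CD103 low replicate 1 and 0.736 over the 11 arrays left without both end arrays, and Spearman's rho was 0.641. Leaving out MDP CD103 low replicate 1 put Tnfrsf9 at 0.868 and Tmem131 at 0.840 with Flt3, so Kit no longer led. Within the 7 arrays high in Xist r was 0.733 and within the 6 low in Xist it was 0.946. These are descriptions over 13 arrays, on each of which both values share 1 RNA sample and 1 normalisation, so no p is given.

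For Kit, Csf2rb and Csf2rb2 the r of the most like genes also depended in part on 1 array, while for Csf2ra and Il3ra it changed little. Kit followed Strip2 (r = 0.920), Ly75 (0.896), which encodes the CD205 of the sort, and Ddhd1 (0.895), and these became 0.830, 0.769 and 0.774 without MDP CD103 low replicate 1. Csf2rb followed Rras, Rassf2 and Rrad (0.938, 0.919 and 0.918, and 0.797, 0.723 and 0.726 without that array). Csf2rb2 followed Cdc42ep3, Utf1 and Rgs12 (0.900, 0.891 and 0.881, and 0.770, 0.741 and 0.728 without it). Csf2ra followed Tbc1d9, Enpp5 and Zfhx3 (0.938, 0.934 and 0.925), where leaving out the array gave 0.943, 0.948 and 0.930. Il3ra followed Hmox2, Als2cl and Ift43 (0.856, 0.849 and 0.843, and 0.855, 0.850 and 0.842 without MDP CD103 low replicate 1). The beta chains followed each other with r = 0.779, which was 0.452 without MDP CD103 low replicate 1.

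Csf1r, the receptor for M-CSF and IL-34 that defines monocytes and macrophages, was low but above background and varied the most among the receptors detected. It read 5.92, 6.09, 6.14 and 5.57 on PBS CD103 low and 5.92, 5.44 and 5.64 on PBS CD103 high. After MDP it read 5.63, 6.02 and 5.98 on CD103 low and 5.92, 6.06 and 6.32 on CD103 high. The MDP difference in CD103 high cells was 0.43 ± 0.17 (95% interval 0.06 to 0.80, 1.35-fold, limma adjusted p = 0.281), with 1 MDP array and 1 PBS array both at 5.92. In CD103 low cells it was -0.05 ± 0.16 (adjusted p = 0.972), and 0.07 without MDP CD103 low replicate 1. The responses differed by 0.48 ± 0.23 (-0.02 to 0.98, adjusted p = 0.547), and by 0.36 without that array.

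Between the gates Csf1r differed by -0.26 ± 0.16 in PBS mice (95% interval -0.60 to 0.08, limma adjusted p = 0.714) and by 0.22 ± 0.17 in MDP mice (adjusted p = 0.722), the former -0.15 without PBS CD103 high replicate 5, and the latter 0.10 without MDP CD103 low replicate 1, or 0.11 if replicate 4 of MDP CD103 high was left out. Among 12 monocyte and macrophage markers, Csf1r included, 3 were at background, and the mean of the list was 5.82 to 5.96 on PBS CD103 high arrays and 5.75 to 5.94 on MDP CD103 high arrays. The arrays of those groups overlapped in the mean of that list. They did not overlap in the cell cycle list, as given for Csf2ra, and its part in the Csf1r values was not tested. The genes most like Csf1r were Ung, Amer1 and Pole3 (r = 0.912, 0.904 and 0.903 over 13 arrays).

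Csf3r, the G-CSF receptor, lay just under the background level, from 4.91 to 5.29, and 4 arrays shared a value of 5.12. Its group means were 5.07 ± 0.19 (SD, n = 4) in PBS CD103 low, 5.06 ± 0.10 in PBS CD103 high, 5.12 ± 0.15 in MDP CD103 low and 5.11 ± 0.17 in MDP CD103 high, the last 3 with n = 3. Of 11 neutrophil and granulocyte precursor markers, Csf3r included, 9 were at background. No level of this receptor could be told from background in any group.

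**Figure D3:**
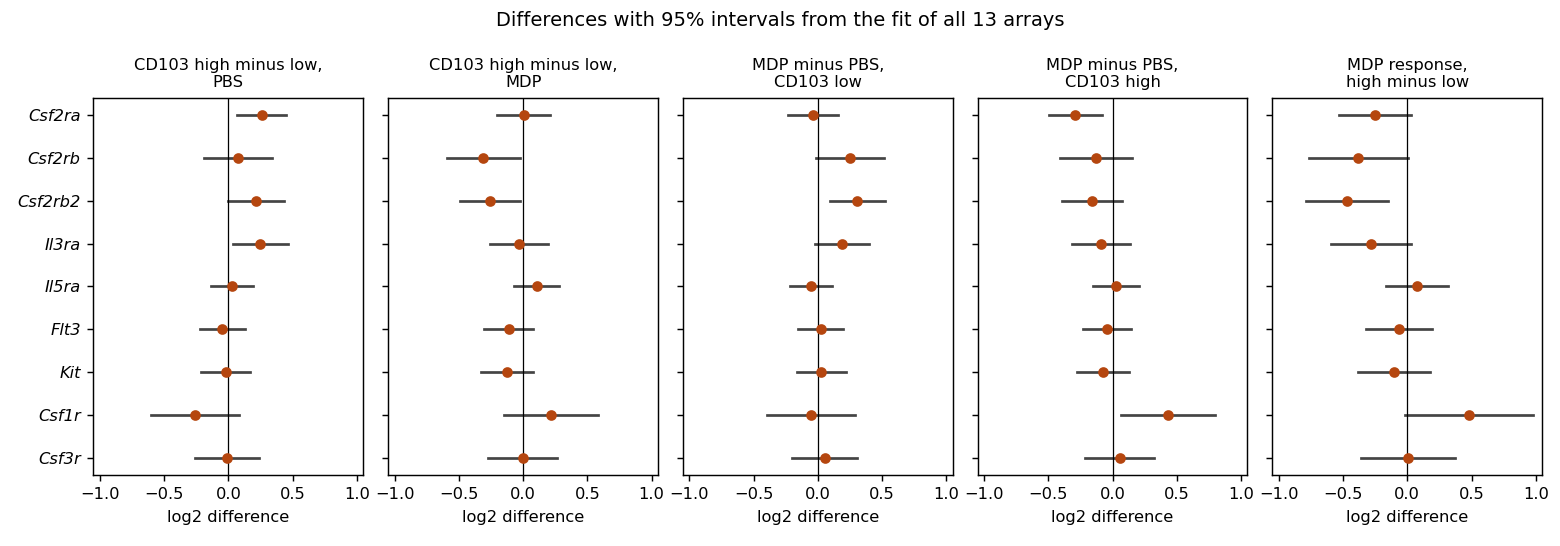
Log2 difference of each receptor transcript (x axis) with its 95% interval in the 4 simple comparisons and, in the last panel, the MDP response in CD103 high minus that in CD103 low cells. Intervals that leave out 0 belong to Csf2ra, Csf2rb, Csf2rb2, Il3ra or Csf1r, none passed the adjusted threshold, and those of Flt3 and Kit span 0 throughout.

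The ligands of these receptors were at background in the sorted cells. Of 7 measured ligand genes (Csf2, Csf1, Il34, Csf3, Kitl, Il3 and Il5) 0 were above background and 0 passed limma in any of the 7 comparisons, with 0 or 1 at an unadjusted p under 0.05 in each, where 6.06% to 13.3% of all genes reached it. Kitl, which encodes stem cell factor, and Il34 had the smallest p-values, with a gate difference in PBS mice of 0.29 ± 0.09 for Kitl (limma adjusted p = 0.426) and an MDP difference in CD103 high cells of 0.39 ± 0.12 for Il34 (adjusted p = 0.169). Flt3l was not analysed here.

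The signalling machinery behind the receptors was present and did not pass the test. All 22 measured kinases, adaptors and STATs were above background, and 0 passed in any comparison. At an unadjusted p under 0.05 there were at most 3 of 22, for the difference between responses, where 9.63% of all genes reached it, and 0 for the gates averaged over treatments (9.56%). Their median differences ran from -0.06 to 0.03. Gab2, an adaptor that links the beta chain and Kit to PI3 kinase, came nearest, at -0.34 ± 0.08 for MDP in CD103 high cells (limma adjusted p = 0.0525) and 0.27 ± 0.07 between the gates of PBS mice (adjusted p = 0.323). The former passed in 4 of 23 alternatives, among them without genes at background (adjusted p = 0.0180). Stat5a differed by -0.28 ± 0.13 for MDP in CD103 high cells (adjusted p = 0.372), and by -0.18 without MDP CD103 high replicate 2.

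Of 15 brakes on receptor signalling, all above background, 1 passed in 1 comparison, where 0.523% of all genes did, and 0 in the others. Sirpa, an inhibitory receptor that recruits phosphatases, was lower in the CD103 high cells of MDP mice than in their CD103 low cells, by -0.50 ± 0.09 (limma adjusted p = 0.0308). It is also a marker of the other conventional dendritic cell type, whose list of 10 genes, Sirpa included, had 3 of 10 at background. That list averaged 5.29 to 5.33 on the MDP CD103 high arrays. On the MDP CD103 low arrays it averaged 5.79 on replicate 1 and 5.45 and 5.51 on the others. The part of the other genes of that list in the Sirpa value was not tested. Ptpn2, a phosphatase acting on JAK and STAT proteins, differed by -0.34 ± 0.09 for MDP in CD103 high cells (adjusted p = 0.0752). Sirpa no longer passed when 1 of 6 arrays was left out, namely each MDP CD103 high array, replicates 1 and 3 of MDP CD103 low, and replicate 1 of PBS CD103 low, with values from -0.56 to -0.43 over 23 alternatives. At an unadjusted p under 0.05 there were 5 of 15 brakes for MDP in CD103 high cells, beside 13.3% of all genes, 3 of 15 between the gates of MDP mice (10.2%) and for the difference between responses (9.63%), and 0 between the gates of PBS mice (8.52%) and for MDP in CD103 low cells (6.06%).

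Of 16 transcripts known to follow GM-CSF or STAT5, 2 passed between the gates of PBS mice, where 0.0766% of all genes did, 0 between those of MDP mice (0.523%), 1 for MDP in CD103 low cells (0.00451%) and 1 for MDP in CD103 high cells (1.82%). At an unadjusted p under 0.05 the counts were 5 (8.52% of all genes), 6 (10.2%), 2 (6.06%) and 6 of 16 (13.3%) in the same order, and 6 for the difference between responses (9.63%). Itgae passed between the gates in PBS mice, as given. It was higher on MDP than on PBS arrays by 2.21 ± 0.23 behind the CD103 low gate (limma adjusted p = 0.00838) and by 1.20 ± 0.25 behind the CD103 high gate (adjusted p = 0.0290). The MDP CD103 low arrays read 9.64 to 10.68 for Itgae and the PBS CD103 high arrays 10.07 to 10.22, so these groups overlapped. Bcl2, which encodes a survival protein, was lower behind the CD103 high gate of PBS mice than behind the low gate, by -0.57 ± 0.09 (adjusted p = 0.0413). With the mean of its probe sets the Bcl2 difference was -0.35. The Bcl2 call was kept with 2 of the 13 arrays left out singly, namely replicate 1 of MDP CD103 low and replicate 6 of PBS CD103 high, and lost with any other. The Itgae call was lost in CD103 high cells without any 1 of the 6 arrays compared, and in CD103 low cells when replicate 2 of the MDP group or replicate 4 of the PBS group was left out. The Itgae values are no independent sign of GM-CSF signalling, since CD103 chose the gates. Itgae is also part of every count above 0 given for this list, so these counts are no independent sign either. Pim1, a kinase gene induced through STAT5, differed by -0.28 ± 0.10 between the gates of MDP mice (adjusted p = 0.323), which was -0.09 with the mean of its probe sets and -0.16 without MDP CD103 low replicate 1. The median over the 16 was 0.07 and -0.14 between the gates in PBS and MDP mice, and 0.09 and -0.07 for MDP in CD103 low and high cells.

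Of 18 transcription factors of the lineage, 16 above background, 0 passed in any comparison. At an unadjusted p under 0.05 there were at most 5 of 18, between the gates of MDP mice, where 10.2% of all genes reached it, and 0 for MDP in CD103 low cells (6.06%). Nfil3, which is needed for cDC1 development, differed by -0.50 ± 0.12 for MDP in CD103 high cells (limma adjusted p = 0.0507), and passed in 6 of 23 alternatives. Runx3 differed by -0.36 ± 0.10 between the gates of MDP mice (adjusted p = 0.149). Of 23 other cytokine receptor chains, 15 above background, 0 passed in any comparison. At an unadjusted p under 0.05 there were 10 of 23 between the gates of MDP mice, beside 10.2% of all genes, 8 for MDP in CD103 high cells (13.3%), 7 for the difference between responses (9.63%), 4 for MDP in CD103 low cells (6.06%), 3 between the gates of PBS mice (8.52%) and 1 for MDP averaged over gates (11.8%). Il13ra1, a chain of the IL-4 and IL-13 receptors, differed by -0.67 ± 0.15 between the gates of MDP mice (adjusted p = 0.0836). Il4ra differed by -0.72 ± 0.21 for MDP in CD103 high cells (adjusted p = 0.119), and passed in 1 of 23. The median of these other chains for the difference between MDP responses was -0.28, beside -0.10 for the 9 growth factor receptors and -0.01 for all genes.

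**Figure D4:**
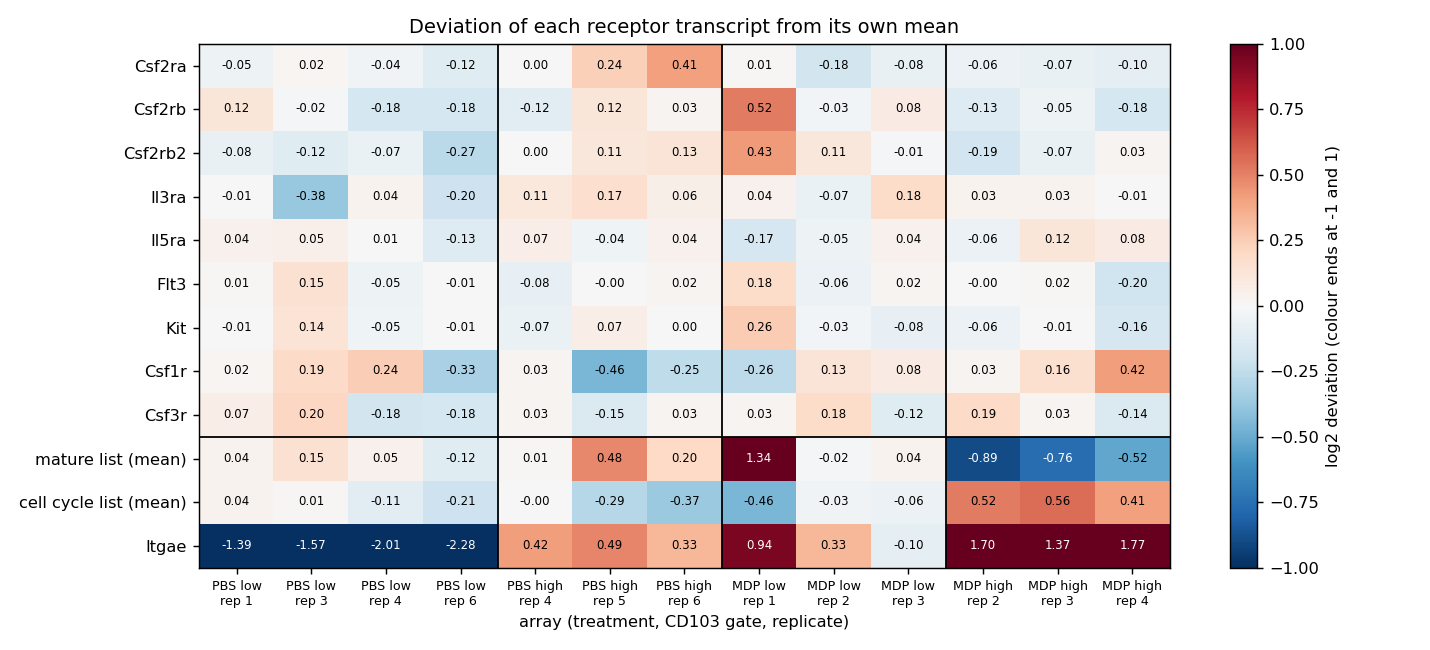
Log2 deviation of each receptor transcript from its own mean over the 13 arrays (rows), by array (columns, named by treatment, CD103 gate and replicate), with the mature and cell cycle list means and Itgae below the line. MDP CD103 low replicate 1 stands out in Csf2rb, Csf2rb2, Kit and the mature list, and the receptor rows stay within a much narrower range than Itgae.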

How the data were processed

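Total RNA was pre-amplified and hybridised to Affymetrix arrays, per the labels' protocols. The authors deposited log2 values per probe set, made with RMA in Affymetrix Expression Console, per the submitters' processing notes. Of 41345 probe sets, 23521 had 1 symbol in the platform annotation, 1814 had several and 16010 were not listed. The probe set with the highest mean was kept for each of 22180 genes. The differences, their standard errors and adjusted p-values come from limma 3.58.1 in R 4.3.3 (lmFit, contrasts.fit and eBayes, two-sided), fitted to all 13 arrays with 1 mean per group. The script was tested on simulated data. The number of arrays limits the precision: the residual degrees of freedom were 9. No arrays were identical (r between arrays 0.976 to 0.991).

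The receptors, 6 pathway lists and 13 marker lists were chosen with earlier results of these data known. In each pathway list, genes past the threshold were named, or else the 2 with the smallest p in a comparison, and only some of these are given. Itgae, Cd8a, Ly75, Nod2 and Xist were always named. For each receptor above background, the 3 genes of highest r were named. Same-numbered arrays of 1 treatment deviated together (r 0.115 to 0.289 in 4 pairs, all of 1 Xist class). Pairs of other numbers ran from -0.37 to 0.207 (54 pairs, 10 of them over 0.1), which overlaps that range. The numbers may therefore pair arrays within a treatment, but the labels do not say so and these few pairs cannot settle it. Across treatments most same-numbered arrays did not deviate together (5 pairs, r -0.13 to 0.403, 1 over 0.1). Alternatives covered scaling, probe sets, the low-value filter, the variance model, the samples fitted, Xist class, the replicate block and each array left out.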

Additional observations from a re-analysis of the deposited data

How the results depend on the processing

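The 35 single differences (7 detected receptors in 5 comparisons) were recomputed under up to 23 other settings, the difference between responses having no fit of only the compared groups, giving 798 values, of which 777 kept direction and side of the threshold, 20 turned sign and 1 newly passed. The count of receptors past the threshold stayed at 0 in all settings but 1: for MDP in CD103 high cells it ranged from 0 to 1 as single arrays were left out, with 1 (Csf2ra, -0.40) without PBS CD103 high replicate 4. With the replicate block the count was 0 in each comparison, with Csf2ra at -0.29 for MDP in CD103 high cells (limma adjusted p = 0.179), and a block within treatment, chosen after seeing the data, changed no receptor's call.

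Sign turns concerned differences smaller than their SE. The largest of them in size was Kit for the difference between responses, at -0.10 ± 0.13, which was 0.00056 without MDP CD103 low replicate 1. With only the arrays low in Xist, Il3ra between the gates of MDP mice was 0.046, and for MDP in CD103 low cells Flt3 was -0.01 and Csf1r 0.00038. The same setting left 1 array in each CD103 high group, replicate 6 of PBS and replicate 2 of MDP. It cannot tell Xist class from these single arrays, and PBS CD103 high replicate 6 was the highest array for Csf2ra. Csf2ra was then 0.45 between the gates of PBS mice and -0.46 for MDP in CD103 high cells. For the difference between responses Csf2rb2 was -0.78 and Csf1r 0.28. With quantile normalisation repeated, Kit for MDP in CD103 low cells was -0.0049. As single arrays were left out, Kit ranged from -0.052 to 0.021 between the gates of PBS mice. Between the gates of MDP mice, Csf2ra ranged from -0.043 to 0.054 and Il3ra from -0.093 to 0.034. For MDP in CD103 low cells, Flt3 ranged from -0.043 to 0.076, Kit from -0.078 to 0.092, Csf1r from -0.17 to 0.073 and Csf2ra from -0.085 to 0.011. For MDP in CD103 high cells Flt3 ranged from -0.081 to 0.026. For the difference between responses, Flt3 ranged from -0.12 to 0.0038 and Kit from -0.17 to 0.00056.

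Counts over all genes moved more. Some settings had fewer arrays or genes, and the cause of the changes was not tested. Without genes at background the counts were 228 for the gates of MDP mice (main value 116), 699 for MDP in CD103 high cells (403), 83 and 212 for the averages over treatments (28) and gates (41) and 134 for the difference between responses (16). With a variance trend and robust estimation together these were 192, 609, 87, 187 and 116. With only the compared groups the first 2 were 0 and 200, and the gates of PBS mice gave 1 (17). With Xist class as a covariate the counts were 61 for the gates of MDP mice, 14 for the average over treatments and 0 for the difference between responses. The fit of only the arrays low in Xist had 1 array in each CD103 high group, so no count is read from it. The replicate block gave 46 for the average over treatments, 27 for the difference between responses and 2 for MDP in CD103 low cells (1), and the block within treatment gave 64, 41 and 2, 190 for the gates of MDP mice and 13 for the average over gates. Repeated quantile normalisation gave 29 for the difference between responses. As single arrays were left out, the counts ranged from 2 to 23 for the gates of PBS mice, 0 to 140 for those of MDP mice, 82 to 594 for MDP in CD103 high cells, 3 to 23 and 3 to 120 for the averages over treatments and gates, and 0 to 107 for the difference between responses. The median SE was 0.0754 to 0.151 over the comparisons, which limits what could be called.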
